A study of Mus musculus with 6 samples.

Results

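Transcripts of 45 genes of mitosis and chromosome segregation were followed across 3 sorted fractions of mouse embryonic stem cell (ESC) cultures. The members were taken by gene symbol from the deposited count table, which holds 38561 genes. Each of the 45 matched 1 row, and all 45 passed the filter on low counts. The 3 fractions are named here for the surface protein that the sort selected: PDGFRa-only (PECAM1minPDGFRaplus in the labels), double-positive (PECAM1plusPDGFRaplus) and PECAM1-only (PECAM1plusPDGFRamin), with 2 libraries each. PDGFRa is a growth factor receptor, and PECAM1 is an adhesion protein on undifferentiated ESCs. Every fraction came from undifferentiated cultures of strain 129X1/SvJ x 129S1/Sv at passages 13 to 17, grown without feeders on gelatin in a medium with 20% serum replacement and 1000 U/ml leukemia inhibitory factor. A FACSAria III sorted them, and RNA of 100000 events per fraction was amplified with the Ovation RNA Amplification System V2 before sequencing. The labels number the libraries of a fraction Exp1 and Exp2 (replicates 1 and 2 here) without saying whether these are separate cultures, so p-values measure only the spread between these libraries. The series title places PDGFRa-positive cells beside the precursors of primitive endoderm, the layer that forms next to the pluripotent epiblast before implantation.

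Mitosis depends on proteins that are made mostly late in each cell cycle. Cyclin-dependent kinase 1 with its cyclins starts it, condensins and topoisomerase II compact and untangle the chromosomes, and kinetochores join them to the spindle. A checkpoint holds the cell until every chromosome is attached, the anaphase-promoting complex then releases the sister chromatids, and the central spindle directs cytokinesis. ESCs cycle fast and their transcripts of these genes are usually abundant. In mouse and human cells, many of these genes share promoter elements read by the DREAM and B-Myb complexes and by the CCAAT-binding factor NF-Y.

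The libraries held 4809661 to 7273669 counts, and replicates correlated with r = 0.982 (PDGFRa-only), 0.987 (double-positive) and 0.987 (PECAM1-only) on the log2 CPM scale across genes, which are not independent replicates. CPM here are counts scaled to a common library size after TMM normalization. Marker levels were summed in each library. The 9 primitive endoderm markers include Pdgfra and the 9 pluripotent markers include Pecam1. The cells were sorted on these 2 proteins, so part of each sum follows from the sort itself. Of the pluripotent markers, 8 were lower in PDGFRa-only than in PECAM1-only cells and 1 did not pass (edgeR), while 28.8% of all tested genes were lower. The summed level of 9 primitive endoderm markers was 12721 to 15018 CPM in PDGFRa-only libraries, 10143 to 10899.7 CPM in double-positive libraries and 230.3 to 263 CPM in PECAM1-only libraries, where Foxa2 was at 0. The summed level of 9 pluripotent markers was 209.8 to 262 CPM in PDGFRa-only, 425 to 516 CPM in double-positive and 1173 to 1228 CPM in PECAM1-only libraries. In every library the sums over markers of other cell types were below both of these sums. Of the 10 endothelial and blood markers, 3 were tested between PDGFRa-only and PECAM1-only cells. Of these, 1 was higher in PDGFRa-only cells (log2 fold change 9.85, edgeR), 1 was lower and 1 did not pass. The sums over 10 endothelial and blood markers were 71.5 to 127 CPM in PDGFRa-only, 58.4 to 78.2 CPM in double-positive and 18.5 to 20.8 CPM in PECAM1-only libraries. Cdh5 was most of this sum in the PDGFRa-only and double-positive libraries, and Tek in the PECAM1-only libraries, with Emcn, Erg and Ptprc at 0 in all 6 libraries, Tie1 at 0 in PDGFRa-only and PECAM1-only libraries, and Gata1 and Tal1 at 0 in PDGFRa-only libraries. Over 8 fibroblast markers they were 7.18 to 15.7 CPM in PDGFRa-only libraries, where Thy1 and Postn were at 0, 6.14 to 14.9 CPM in double-positive and 4.95 to 7.21 CPM in PECAM1-only libraries. Over 6 trophoblast markers they were 5.29 to 8.76 CPM in PDGFRa-only, 10.9 to 11.7 CPM in double-positive and 11.4 to 13.8 CPM in PECAM1-only libraries, with Cdx2 at 0 in PECAM1-only libraries. Of the 8 fibroblast markers, 3 were tested between PDGFRa-only and PECAM1-only cells. Of these 3, 2 were higher in PDGFRa-only cells and 1 was lower (edgeR), while 30.1% of all tested genes were higher. Of the 6 trophoblast markers, 1 was tested and did not pass.

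Mitosis transcripts were lower in PDGFRa-only cells than in PECAM1-only cells, and the double-positive fraction lay between them. The 45 genes together took 0.519% and 0.609% of all counts in the PDGFRa-only libraries, 0.828% and 0.826% in the double-positive libraries, and 1.15% and 1.12% in the PECAM1-only libraries. Their summed level was 5599 and 6694 CPM in PDGFRa-only, 8555 and 8573 CPM in double-positive, and 10275 and 10029.9 CPM in PECAM1-only libraries. The 3 fractions did not overlap in either sum. In bulk samples such as these, fewer cells in mitosis and less RNA per cell cannot be told apart. For 26 members both PDGFRa-only libraries were below both double-positive libraries and these below both PECAM1-only libraries, an order found in 22.7% of all tested genes. One member, Birc5, had the opposite stepwise order, found in 20.0% of tested genes, and 18 members had neither.

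**Figure D1:**
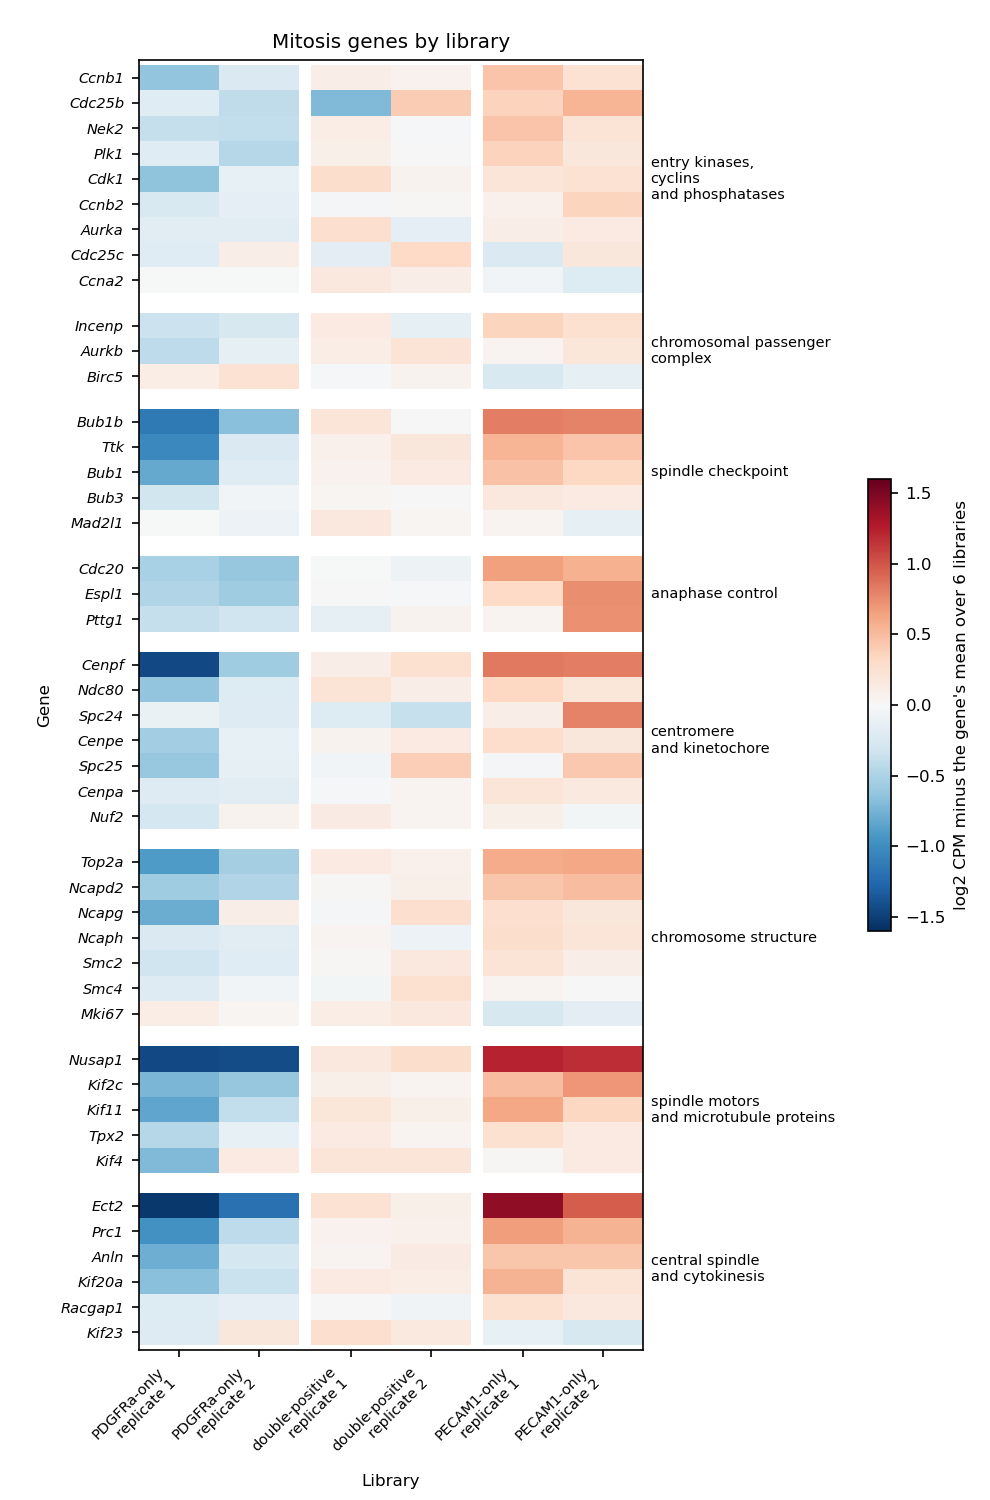
Level of each of the 45 mitosis genes in the 6 libraries, as log2 CPM minus the gene's mean over the libraries (colour), in blocks by role. Blue cells fill the 2 PDGFRa-only columns for most genes and red cells the PECAM1-only columns, with Birc5, Mki67, Ccna2 and Kif23 among the genes that do not follow this.

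Between PDGFRa-only and PECAM1-only cells, 32 of the 45 members were lower, 1 was higher and 12 did not pass the test (edgeR quasi-likelihood test, Benjamini-Hochberg adjusted p under 0.05 over 13909 genes). Of all tested genes, 28.8% were lower, 30.1% higher and 59.0% changed in either direction. The members' median log2 fold change was -0.60 and that of all tested genes 0.01, and the members ranged from -2.64 (Nusap1) to 0.39 (Birc5). In all, 11 members were over 2-fold lower, a size reached by 20.0% of all tested genes: Nusap1, Ect2, Cenpf, Bub1b, Top2a, Prc1, Kif2c, Cdc20, Kif11, Ttk and Espl1. Both PDGFRa-only libraries were below both PECAM1-only libraries for 37 members (38.9% of all tested genes) and above them for 3 members (39.0%), and the libraries of 5 members overlapped. Scaling by upper quartile and by library size moved the median of all genes to -0.20 and -0.28. The members' median relative to that of all genes was -0.61 with TMM and -0.60 and -0.61 with these scalings. A change of scaling shifts all genes by nearly the same amount, so this relative median could hardly change and is no test of the scaling. With library-size scaling 37.8% of all calls were higher, against 51.1% with TMM.

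**Figure D2:**
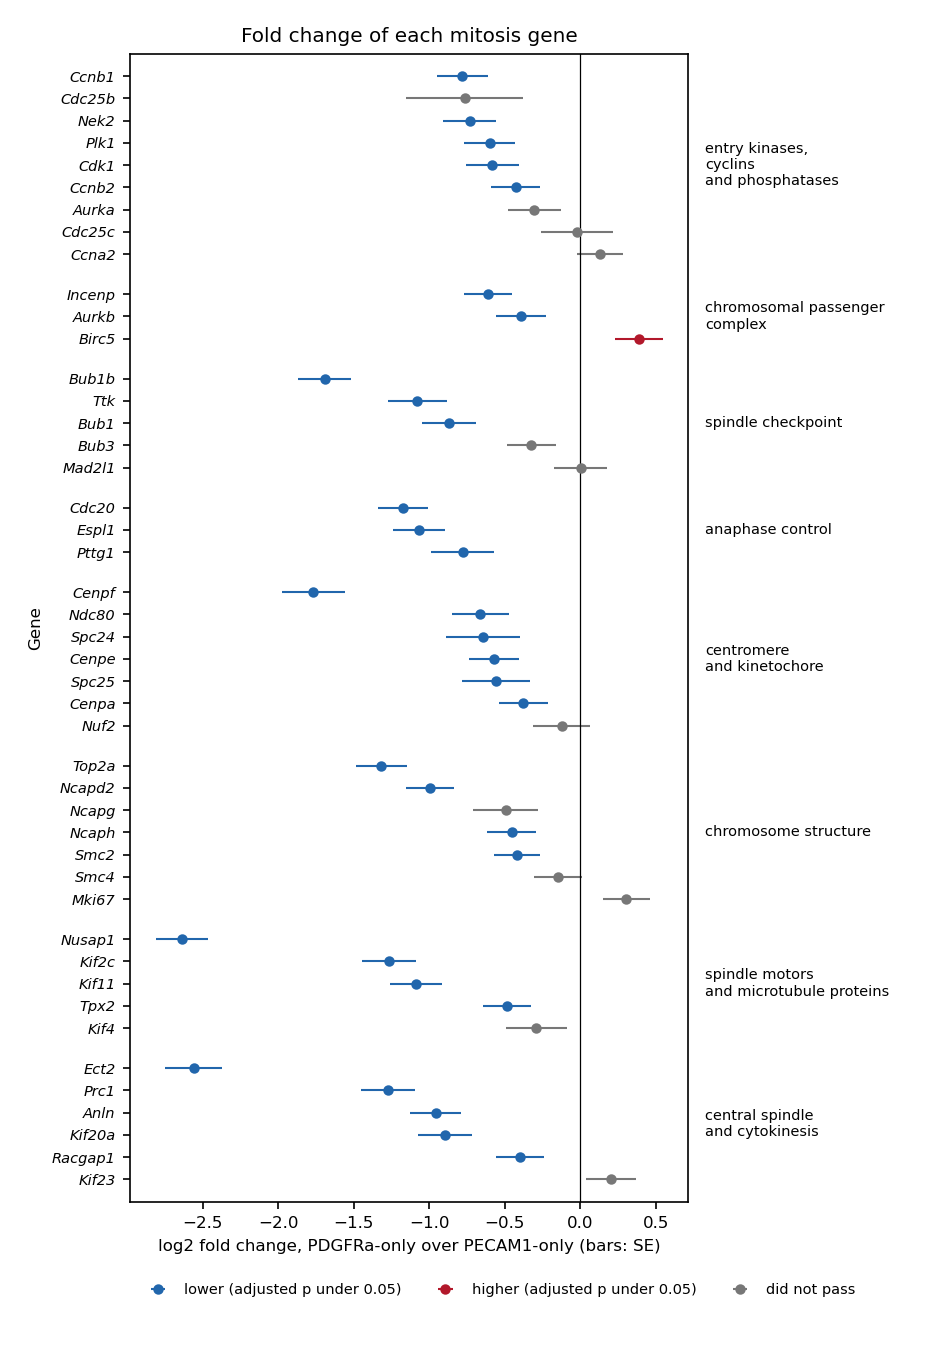
Log2 fold change of each mitosis gene, PDGFRa-only over PECAM1-only, with its standard error, in blocks by role; blue marks lower, red higher and grey genes that did not pass. Nusap1 (-2.64) and Ect2 (-2.56) lie farthest to the left and Birc5 (0.39) farthest to the right.

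The members' promoters were searched for elements that late cell-cycle genes are known to share. The members were chosen as genes of mitosis, so a share above that of all windows says nothing about the fractions. RefSeq promoter windows (GRCm38.p6, 250 bases before to 50 bases after a RefSeq start) were at hand for 37 of the 45 members. Cdc25c, Ccna2, Spc24, Tpx2, Kif20a, Incenp, Smc4 and Aurkb had no entry. For a member with several windows, the one at the outermost start was taken. RefSeq starts can differ from the GENCODE gene positions given below. The Kif2c window (117178723 to 117179022, minus strand), for example, lies inside the gene, which GENCODE places at 117159639 to 117182639. The letters TTTGAA or TTTAAA, the core of the cell cycle homology region, were searched on both strands, as were the letters CCAAT; neighbouring matches may share bases. At least 1 of TTTGAA and TTTAAA stood in 29 of 37 member windows (78.4%) and in 27.6% of all 32851 windows of the same length. The latter were all windows at hand, not limited to 1 per gene or to tested genes. TTTGAA alone stood in 26 member windows (70.3%) and in 17.9% of all, TTTAAA in 9 (24.3%) and 13.2%, and CCAAT in 28 (75.7%) and 37.4%. CCAAT together with TTTGAA or TTTAAA was found in 25 member windows (67.6%) and in 10.7% of all windows, and at least 2 CCAAT in 17 (45.9%) and 11.7%. These are counts of letters and show no binding. By call, TTTGAA or TTTAAA stood in 22 of 27 windows of lower members and in 7 of 10 windows of the other members, and CCAAT in 21 of 27 and 7 of 10.

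The windows of the 4 members with the smallest p in this comparison and of the 2 with the largest p among those with a window are shown, since they are the ends of the range; capitals mark these motifs, and a motif on the other strand stands as its reverse complement. Nusap1 (chr2:119618048-119618347, plus strand), which had the smallest p, holds none of these letters.
Nusap1: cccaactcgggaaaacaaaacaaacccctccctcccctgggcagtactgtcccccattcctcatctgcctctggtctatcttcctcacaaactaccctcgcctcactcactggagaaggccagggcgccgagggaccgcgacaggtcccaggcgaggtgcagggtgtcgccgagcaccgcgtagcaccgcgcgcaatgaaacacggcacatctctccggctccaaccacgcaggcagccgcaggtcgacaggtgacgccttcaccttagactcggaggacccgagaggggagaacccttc
Ect2 (chr3:27153829-27154128, minus strand) holds 2 TTTGAA and 3 CCAAT.
Ect2: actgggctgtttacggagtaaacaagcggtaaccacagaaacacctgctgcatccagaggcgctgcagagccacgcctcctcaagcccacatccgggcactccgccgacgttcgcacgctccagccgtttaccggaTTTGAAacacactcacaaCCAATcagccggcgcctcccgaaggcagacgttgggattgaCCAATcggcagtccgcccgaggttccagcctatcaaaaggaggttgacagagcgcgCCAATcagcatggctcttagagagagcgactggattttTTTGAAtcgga
Bub1b (chr2:118597961-118598260, plus strand) holds 1 TTTGAA and, on the other strand, 1 CCAAT.
Bub1b: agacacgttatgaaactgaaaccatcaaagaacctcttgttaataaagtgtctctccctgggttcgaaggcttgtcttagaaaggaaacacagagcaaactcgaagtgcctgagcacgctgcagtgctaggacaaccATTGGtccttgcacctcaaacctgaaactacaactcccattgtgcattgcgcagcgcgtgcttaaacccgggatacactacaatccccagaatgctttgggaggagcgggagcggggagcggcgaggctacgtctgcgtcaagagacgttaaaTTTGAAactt
Cenpf (chr1:189688037-189688336, minus strand) holds 1 TTTAAA, 2 CCAAT and 1 TTTGAA.
Cenpf: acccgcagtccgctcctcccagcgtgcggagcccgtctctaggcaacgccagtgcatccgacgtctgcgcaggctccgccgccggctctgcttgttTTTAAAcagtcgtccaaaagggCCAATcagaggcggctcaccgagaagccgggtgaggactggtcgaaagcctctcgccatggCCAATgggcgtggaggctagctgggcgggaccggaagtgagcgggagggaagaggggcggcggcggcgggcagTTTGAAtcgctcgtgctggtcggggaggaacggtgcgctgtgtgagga
Nuf2 (chr1:169531415-169531714, minus strand) and Mad2l1 (chr6:66534971-66535270, plus strand), whose transcripts did not pass the test, hold none. The Mad2l1 window ends before the start that GENCODE gives for this gene (66535390).
Nuf2: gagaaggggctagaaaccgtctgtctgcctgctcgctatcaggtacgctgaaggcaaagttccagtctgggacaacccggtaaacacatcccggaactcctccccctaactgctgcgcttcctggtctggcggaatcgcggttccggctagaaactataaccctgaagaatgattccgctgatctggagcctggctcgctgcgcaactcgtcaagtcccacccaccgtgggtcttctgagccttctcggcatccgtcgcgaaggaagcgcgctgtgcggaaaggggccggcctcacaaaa
Mad2l1: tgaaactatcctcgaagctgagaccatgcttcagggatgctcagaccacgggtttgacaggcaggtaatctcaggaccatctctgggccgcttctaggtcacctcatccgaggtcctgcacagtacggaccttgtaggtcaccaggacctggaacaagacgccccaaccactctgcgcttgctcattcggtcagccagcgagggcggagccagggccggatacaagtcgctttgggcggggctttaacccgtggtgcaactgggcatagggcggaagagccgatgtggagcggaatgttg
Windows without these letters thus stood at both ends of the range.

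Among 9 kinases, cyclins and phosphatases of mitotic entry, 5 were lower in PDGFRa-only cells and 4 did not pass. Ccnb1 (cyclin B1, the main partner of Cdk1; ENSMUSG00000041431, GRCm38 chromosome 13, 100778650 to 100786570) had 69.8 and 91.1 CPM in the PDGFRa-only libraries, 116 and 114 CPM in the double-positive libraries and 149 and 129 CPM in the PECAM1-only libraries. Its PDGFRa-only libraries were the lowest and its PECAM1-only libraries the highest, without overlap, and the log2 fold change was -0.78 ± 0.17 (SE; edgeR, adjusted p = 0.000494). The kinase Nek2, which acts in centrosome separation, had a log2 fold change of -0.73 ± 0.18 (SE; edgeR, adjusted p = 0.00118). The mitotic kinase Plk1 (-0.60 ± 0.17, SE; edgeR, adjusted p = 0.00423), Cdk1 itself (-0.58 ± 0.18, SE; edgeR, adjusted p = 0.00706) and cyclin B2, Ccnb2 (-0.43 ± 0.16, SE; edgeR, adjusted p = 0.0278), were lower by less. Some of these calls were lost in other settings, where a left-out library is named by fraction and replicate. Plk1 lost its call without PECAM1-only 1, at a log2 fold change of -0.49, and Cdk1 without PDGFRa-only 1, at -0.33. Ccnb2 lost its call under no count filter (edgeR, adjusted p = 0.0547). It also did without PDGFRa-only 1, at -0.36, PECAM1-only 2, at -0.28, double-positive 1, at -0.41, or double-positive 2, at -0.42. The double-positive libraries are not part of this comparison. Leaving out any library lowers the residual degrees of freedom, so a lost call need not rest on that library. Below, the value in brackets after a left-out library is edgeR's adjusted p without it.

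Cyclin A2, the Cdc25 phosphatases and Aurka did not pass. Ccna2 (cyclin A2, which acts from S phase into mitosis) had 357 and 358 CPM in the PDGFRa-only libraries, 405 and 387 CPM in the double-positive libraries and 345 and 308 CPM in the PECAM1-only libraries. Its PDGFRa-only libraries were above both PECAM1-only libraries and below both double-positive libraries, and its log2 fold change of 0.13 ± 0.15 (SE; edgeR, adjusted p = 0.486) did not pass, with a 95% interval of -0.19 to 0.44. It was -0.08 with upper-quartile scaling and -0.16 with library-size scaling. Cdc25c, a phosphatase that activates Cdk1, had 18.4 and 22.7 CPM in the PDGFRa-only libraries, 18.7 and 26.3 CPM in the double-positive libraries and 18.1 and 24.0 CPM in the PECAM1-only libraries, with overlap of all 3 fractions and a log2 fold change of -0.02 ± 0.24 (SE; edgeR, adjusted p = 0.942). Its 95% interval was -0.52 to 0.47. Cdc25b, a related phosphatase, was the least abundant member at 4.04 and 3.47 CPM in the PDGFRa-only libraries, against 5.97 and 6.74 CPM in the PECAM1-only libraries, and its log2 fold change of -0.77 ± 0.39 (SE; edgeR, adjusted p = 0.0959) did not pass. Aurka, the centrosomal Aurora kinase, had a log2 fold change of -0.31 ± 0.17 (SE; edgeR, adjusted p = 0.139).

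The chromosomal passenger complex, which corrects faulty attachments and later guides cytokinesis, held the 1 member called higher. Birc5 (survivin, the subunit that brings the complex to centromeres; ENSMUSG00000017716, GRCm38 chromosome 11, 117849251 to 117855743) had 108 and 118 CPM in the PDGFRa-only libraries, 98.2 and 103 CPM in the double-positive libraries and 83.0 and 89.7 CPM in the PECAM1-only libraries. The PDGFRa-only libraries were the highest and the PECAM1-only libraries the lowest, without overlap, and the log2 fold change was 0.39 ± 0.16 (SE; edgeR, adjusted p = 0.0432). This call was lost in 11 of 13 settings on the counts, under upper-quartile scaling (0.338), library-size scaling (0.610), DESeq2 (0.0905), no count filter (0.05003), the minimum count of 50 (0.0775) and a fit of the 2 fractions alone (0.107) and on leaving out PDGFRa-only 2 (0.116), PECAM1-only 1 (0.185), PECAM1-only 2 (0.0818), double-positive 1 (0.0604) or double-positive 2 (0.0721). On log2(RPKM + 1) values, tested with limma, it was 0.22 (adjusted p = 0.187). Incenp, the scaffold of the complex, had 104 and 109 CPM in the PDGFRa-only libraries, 145 and 119 CPM in the double-positive libraries and 169 and 157 CPM in the PECAM1-only libraries. The PDGFRa-only libraries were the lowest and the PECAM1-only libraries the highest, and the log2 fold change was -0.61 ± 0.16 (SE; edgeR, adjusted p = 0.00261). Aurkb, the kinase of the complex, had 66.0 and 79.6 CPM in the PDGFRa-only libraries, 95.5 and 103 CPM in the double-positive libraries and 90.8 and 101 CPM in the PECAM1-only libraries. Its PDGFRa-only libraries were below the other 4, which overlapped. The log2 fold change was -0.39 ± 0.17 (SE; edgeR, adjusted p = 0.0499), near the threshold, and the call was lost under no count filter (0.0993) and a fit of the 2 fractions alone (0.0629) and on leaving out PDGFRa-only 1 (0.243), PECAM1-only 1 (0.0870), PECAM1-only 2 (0.239), double-positive 1 (0.0889) or double-positive 2 (0.0838). The 3 subunits of 1 complex thus had log2 fold changes of 0.39, -0.61 and -0.39; with library-size scaling Birc5 had 0.10.

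Of 5 spindle checkpoint genes, 3 were lower and 2 did not pass. Bub1b (BubR1, a subunit of the mitotic checkpoint complex that restrains Cdc20; ENSMUSG00000040084, GRCm38 chromosome 2, 118598211 to 118641591) had 88.7 and 123 CPM in the PDGFRa-only libraries, 226 and 197 CPM in the double-positive libraries and 346 and 342 CPM in the PECAM1-only libraries. The fractions did not overlap, and the log2 fold change of -1.69 ± 0.17 (SE; edgeR, adjusted p = 3.97e-08) corresponds to a level 3.23-fold lower. The checkpoint kinases Ttk (-1.08 ± 0.20, SE; edgeR, adjusted p = 8.00e-05) and Bub1 (-0.87 ± 0.18, SE; edgeR, adjusted p = 0.000317) were also lower. Without PDGFRa-only replicate 1 the log2 fold change of Bub1 was -0.58 (adjusted p = 0.00270, edgeR). Mad2l1, the Mad2 protein that joins Bub1b in the checkpoint complex, had 54.6 and 51.4 CPM in the PDGFRa-only libraries, 61.5 and 55.9 CPM in the double-positive libraries and 56.2 and 49.4 CPM in the PECAM1-only libraries. All fractions lay close together, the PDGFRa-only and PECAM1-only libraries overlapped, and the log2 fold change was 0.00 ± 0.18 (SE; edgeR, adjusted p = 0.992) with a 95% interval of -0.36 to 0.37. Upper-quartile scaling gave -0.20 and library-size scaling -0.28. Bub3, which anchors Bub1 and Bub1b at kinetochores, had a log2 fold change of -0.33 ± 0.16 (SE; edgeR, adjusted p = 0.0912) and did not pass.

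All 3 genes of anaphase control were lower. Cdc20 (the activator of the anaphase-promoting complex; ENSMUSG00000006398, GRCm38 chromosome 4, 118432901 to 118437352) had 51.4 and 47.9 CPM in the PDGFRa-only libraries, 72.9 and 69.5 CPM in the double-positive libraries and 115 and 108 CPM in the PECAM1-only libraries. The fractions did not overlap, and the log2 fold change was -1.17 ± 0.17 (SE; edgeR, adjusted p = 3.79e-06). Espl1 (separase, the protease that cuts cohesin) had a log2 fold change of -1.07 ± 0.17 (SE; edgeR, adjusted p = 1.66e-05). Pttg1 (securin, the inhibitor of separase) had 37.0 and 38.5 CPM in the PDGFRa-only libraries, 43.7 and 50.1 CPM in the double-positive libraries and 49.8 and 80.1 CPM in the PECAM1-only libraries. PECAM1-only replicate 2 stood above the other 5 libraries, the log2 fold change was -0.78 ± 0.21 (SE; edgeR, adjusted p = 0.00306), and without that library it was -0.39 and did not pass (edgeR, adjusted p = 0.176).

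Among 7 centromere and kinetochore genes, 6 were lower. Cenpf (a large kinetochore protein that binds microtubules; ENSMUSG00000026605, GRCm38 chromosome 1, 189640606 to 189688086) had 172 and 317 CPM in the PDGFRa-only libraries, 504 and 563 CPM in the double-positive libraries and 842 and 827 CPM in the PECAM1-only libraries. The PDGFRa-only libraries were lowest and differed most from each other, no fractions overlapped, and the log2 fold change was -1.77 ± 0.21 (SE; edgeR, adjusted p = 5.63e-07). The motor Cenpe (-0.57 ± 0.16, SE; edgeR, adjusted p = 0.00542) and the Ndc80 complex subunits Ndc80 (-0.66 ± 0.19, SE; edgeR, adjusted p = 0.00435), Spc24 (-0.64 ± 0.24, SE; edgeR, adjusted p = 0.0290) and Spc25 (-0.56 ± 0.22, SE; edgeR, adjusted p = 0.0358) were lower by less. The centromeric histone gene Cenpa had a log2 fold change of -0.38 ± 0.16 (SE; edgeR, adjusted p = 0.0486). Nuf2, the partner of Ndc80 in the same complex, had 31.4 and 39.6 CPM in the PDGFRa-only libraries, 41.7 and 39.3 CPM in the double-positive libraries and 40.8 and 37.0 CPM in the PECAM1-only libraries. Its libraries overlapped between all fractions, and the log2 fold change of -0.12 ± 0.19 (SE; edgeR, adjusted p = 0.597) did not pass, with a 95% interval of -0.52 to 0.27.

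Of these 6 calls, 5 were lost in at least 1 setting. The call of Cenpe was lost on leaving out PDGFRa-only 1 (0.0529) or PECAM1-only 1 (0.0505), that of Ndc80 on leaving out PECAM1-only 1 (0.0505), that of Spc24 under DESeq2 (0.0508) and on leaving out PDGFRa-only 2 (0.0764) or PECAM1-only 2 (0.495) and that of Spc25 on leaving out PDGFRa-only 1 (0.207) or PECAM1-only 2 (0.358). The call of Cenpa was lost under no count filter (0.117) and a fit of the 2 fractions alone (0.0644) and on leaving out PDGFRa-only 1 (0.101), PDGFRa-only 2 (0.0682), PECAM1-only 1 (0.204), PECAM1-only 2 (0.115), double-positive 1 (0.0988) or double-positive 2 (0.0920). With limma on log2(RPKM + 1) values Spc25 had -0.57 (adjusted p = 0.0730) and was not called. The call of Cenpf was kept in all 13 settings on the counts.

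Of 7 genes of chromosome structure, 4 were lower and 3 did not pass. Top2a (topoisomerase II alpha, which untangles sister DNA; ENSMUSG00000020914, GRCm38 chromosome 11, 98992943 to 99024189) had 626 and 804 CPM in the PDGFRa-only libraries, 1289.8 and 1238 CPM in the double-positive libraries and 1767 and 1799.5 CPM in the PECAM1-only libraries. The fractions did not overlap, and the log2 fold change was -1.32 ± 0.17 (SE; edgeR, adjusted p = 8.92e-07). Top2a was the most abundant member per length in PECAM1-only cells, at 79.3 CPM per kb of exon in PDGFRa-only cells and 198 CPM per kb in PECAM1-only cells. The condensin I subunits Ncapd2 (-0.995 ± 0.16, SE; edgeR, adjusted p = 1.49e-05) and Ncaph (-0.46 ± 0.16, SE; edgeR, adjusted p = 0.0202) were lower, as was the condensin core subunit Smc2 (-0.42 ± 0.15, SE; edgeR, adjusted p = 0.0233). The call of Ncaph was lost on leaving out PDGFRa-only 1 (0.0503), PECAM1-only 1 (0.125) or PECAM1-only 2 (0.0559), and that of Smc2 on leaving out PDGFRa-only 1 (0.0700), PECAM1-only 1 (0.156), double-positive 1 (0.0524) or double-positive 2 (0.0507). On log2(RPKM + 1) values, tested with limma, Smc2 had -0.19 (adjusted p = 0.251) and was not called, and Top2a had -0.81 (adjusted p = 0.00211). The remaining condensin I subunit Ncapg had 53.7 and 100.2 CPM in the PDGFRa-only libraries, against 113 and 106 CPM in the PECAM1-only libraries, with a log2 fold change of -0.50 ± 0.22 (SE; edgeR, adjusted p = 0.0561). It did not pass, and it rested on which PDGFRa-only library was kept: it was -1.02 (edgeR, adjusted p = 2.38e-05) without replicate 2 and -0.11 (edgeR, adjusted p = 0.630) without replicate 1. It was called lower in 8 of 13 settings on the counts.

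Smc4 and Mki67 did not follow Top2a. Smc4, the partner of Smc2 in the condensin core, had 225 and 251 CPM in the PDGFRa-only libraries, 253 and 310.4 CPM in the double-positive libraries and 268 and 261 CPM in the PECAM1-only libraries, with a log2 fold change of -0.15 ± 0.16 (SE; edgeR, adjusted p = 0.431) and a 95% interval of -0.48 to 0.18. Its PDGFRa-only libraries were below the other 4 by a small margin. Mki67 (Ki-67, which coats mitotic chromosomes and is the common protein marker of cycling cells; ENSMUSG00000031004, GRCm38 chromosome 7, 135689784 to 135716361) had 933 and 876 CPM in the PDGFRa-only libraries, 929.8 and 961 CPM in the double-positive libraries and 707 and 759 CPM in the PECAM1-only libraries. The PECAM1-only libraries were the lowest, and those of the other 2 fractions overlapped. Its log2 fold change of 0.30 ± 0.15 (SE; edgeR, adjusted p = 0.0989) did not pass, with a 95% interval of -0.02 to 0.63. It was 0.017 (edgeR, adjusted p = 0.933) under library-size scaling, 0.10 (edgeR, adjusted p = 0.593) under upper-quartile scaling and 0.35 (edgeR, adjusted p = 0.0442) without PDGFRa-only replicate 2. Per length it was the most abundant member in PDGFRa-only cells at 89.9 CPM per kb, and it had 72.9 CPM per kb in PECAM1-only cells.

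**Figure D3:**
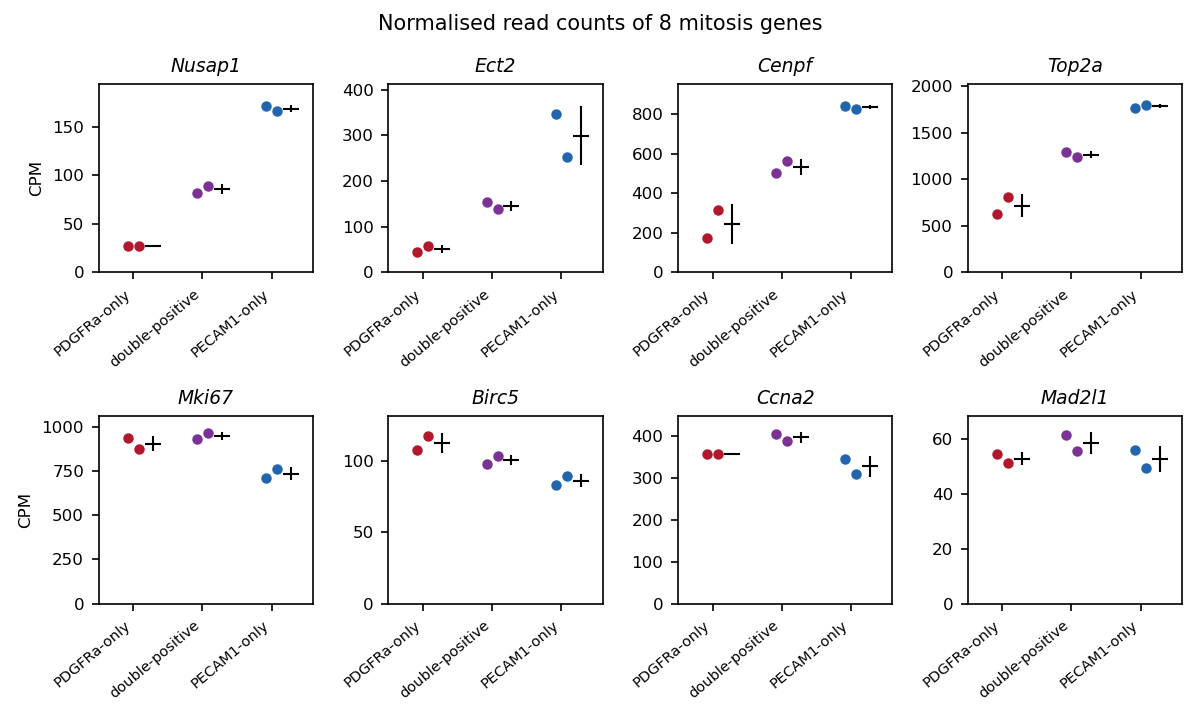
CPM of 8 mitosis genes in each library (points), by sorted fraction, with the mean and SD of the 2 libraries beside them. Nusap1, Ect2, Cenpf and Top2a (top row) step up from PDGFRa-only to PECAM1-only; Mki67, Birc5, Ccna2 and Mad2l1 (bottom row) do not.

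Of 5 spindle motors and microtubule proteins, 4 were lower. Nusap1 (a protein that bundles microtubules around chromosomes; ENSMUSG00000027306, GRCm38 chromosome 2, 119618298 to 119651244) had 26.9 and 27.2 CPM in the PDGFRa-only libraries, 81.8 and 89.0 CPM in the double-positive libraries and 171 and 166 CPM in the PECAM1-only libraries. The libraries of a fraction lay close together and the fractions far apart, and the log2 fold change of -2.64 ± 0.17 (SE; edgeR, adjusted p = 4.05e-11) corresponds to a level 6.22-fold lower, the largest difference among the 45 members. Kif2c, a kinesin that takes microtubules apart at centromeres, had a log2 fold change of -1.27 ± 0.18 (SE; edgeR, adjusted p = 3.46e-06). Kif11, the motor that pushes spindle poles apart, had one of -1.09 ± 0.17 (SE; edgeR, adjusted p = 1.58e-05). Tpx2, which activates Aurka on the spindle, had one of -0.49 ± 0.16 (SE; edgeR, adjusted p = 0.0126), and its call was lost on leaving out PDGFRa-only 1 (0.0888) or PECAM1-only 1 (0.0950), as well as on log2(RPKM + 1) values at -0.31 (adjusted p = 0.101), tested with limma. Kif4, a chromosome-bound kinesin, had 84.4 and 153 CPM in the PDGFRa-only libraries, 159.6 and 159 CPM in the double-positive libraries and 140.0 and 152 CPM in the PECAM1-only libraries. PDGFRa-only replicate 1 stood apart from the other 5 libraries, and the log2 fold change of -0.29 ± 0.20 (SE; edgeR, adjusted p = 0.226) did not pass. It was -0.79 without PDGFRa-only replicate 2 (edgeR, adjusted p = 2.27e-04) and 0.08 without PDGFRa-only replicate 1.

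Of 6 genes of the central spindle and cytokinesis, 5 were lower. Ect2 (the exchange factor that activates RhoA at the cleavage site; ENSMUSG00000027699, GRCm38 chromosome 3, 27097222 to 27153878) had 44.5 and 56.6 CPM in the PDGFRa-only libraries, 153 and 138 CPM in the double-positive libraries and 346 and 253 CPM in the PECAM1-only libraries. The fractions did not overlap, and the log2 fold change was -2.56 ± 0.19 (SE; edgeR, adjusted p = 2.35e-10). Prc1, which bundles the microtubules of the central spindle, had a log2 fold change of -1.27 ± 0.18 (SE; edgeR, adjusted p = 2.72e-06). The cleavage furrow scaffold Anln (-0.96 ± 0.17, SE; edgeR, adjusted p = 5.58e-05) and the kinesin Kif20a (-0.89 ± 0.18, SE; edgeR, adjusted p = 0.000204) followed. Racgap1 and Kif23 form the centralspindlin complex, which recruits Ect2. Racgap1 had a log2 fold change of -0.40 ± 0.16 (SE; edgeR, adjusted p = 0.0372), a call that was lost under no count filter (0.0883) and a fit of the 2 fractions alone (0.0509) and on leaving out PDGFRa-only 1 (0.0929), PECAM1-only 1 (0.192), PECAM1-only 2 (0.0841), double-positive 1 (0.0781) or double-positive 2 (0.0723). Kif23 had 186 and 244 CPM in the PDGFRa-only libraries, 258 and 241 CPM in the double-positive libraries and 196 and 179 CPM in the PECAM1-only libraries. Its PDGFRa-only libraries overlapped with both other fractions, and the log2 fold change of 0.20 ± 0.16 (SE; edgeR, adjusted p = 0.297) did not pass. It was -0.0033 with upper-quartile scaling, -0.09 with library-size scaling and 0.40 without PDGFRa-only replicate 1 (edgeR, adjusted p = 0.0294).

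The 2 PDGFRa-only libraries differed in the level of many members. Replicate 1 was below replicate 2 for 37 of 45 members, with a median ratio of replicate 2 over replicate 1 of 1.19, and 5 members were over 1.5-fold apart: Ncapg (1.87), Cenpf (1.84), Kif4 (1.81), Ttk (1.73) and Bub1 (1.55). The number over 1.5-fold apart was 1 between the double-positive libraries and 2 between the PECAM1-only libraries, with median ratios of 0.982 and 0.959. The summed primitive endoderm markers were 12721 CPM in PDGFRa-only replicate 1 and 15018 CPM in replicate 2, and the pluripotent markers 262 and 209.8 CPM. PDGFRa-only replicate 1 had the fewest counts (4809661) and detected genes (17811) of the 6 libraries, and replicate 2 had 7273669 counts and 18785 genes. The part of markers and depth in the difference between these libraries was not tested. Of the 33 calls in this comparison, 18 were kept in all 13 settings on the counts.

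Per length of exon, the order of the members differed between the fractions. In PDGFRa-only cells Mki67 (89.9 CPM per kb), Ccna2 (87.5) and Top2a (79.3) led, and in PECAM1-only cells Top2a (198), Ccnb2 (84.8) and Tpx2 (84.8). Ect2 ranked 36 of 45 in PDGFRa-only cells and 9 in PECAM1-only cells, and Nusap1 ranked 39 and 17. Birc5 ranked 8 in PDGFRa-only cells and 26 in PECAM1-only cells, and Kif23 ranked 13 and 31. Across the 45 members, exon length and the log2 fold change had a Spearman correlation of -0.02, as a description over genes that share the same libraries. Exons of some members overlap a gene on the opposite strand, and whether reads were counted by strand is not given in the sources used here, so reads of such pairs cannot be told apart. The overlap covered 29.3% of the exon bases of Kif20a (with Cdc23), 15.1% of Kif4 (Pdzd11), 13.4% of Ncapg (Lcorl), 12.7% of Cdc25c (Gm3550), 12.5% of Ccna2 (Exosc9), 11.1% of Prc1 (Rccd1), 7.09% of Plk1 (Gm44985), 6.599% of Nek2 (Gm38037), 4.24% of Nusap1 (Oip5), 2.84% of Cdc20 (Elovl1) and 2.47% of Cdc25b (Spef1).

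Fewer members passed between double-positive and PECAM1-only cells. Of the 45 members, 11 were lower, none was higher and 34 did not pass (edgeR, adjusted p under 0.05). Of all tested genes, 16.4% were lower, 21.8% higher and 38.2% changed in either direction. At an unadjusted p under 0.05, 2 members were higher, Mki67 and Kif23, and DESeq2 called none higher. The members' median log2 fold change was -0.25 and that of all tested genes -0.01. Ect2 was the 1 member over 2-fold lower, against 8.88% of all tested genes. Both double-positive libraries were below both PECAM1-only libraries for 27 members (35.5% of all tested genes) and above them for 5 (36.2%), and 13 members overlapped.

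Ect2 had 153 and 138 CPM in the double-positive libraries, against 346 and 253 CPM in the PECAM1-only libraries, with a log2 fold change of -1.04 ± 0.18 (SE; edgeR, adjusted p = 6.77e-05). Nusap1 had 81.8 and 89.0 CPM in the double-positive libraries, against 171 and 166 CPM in the PECAM1-only libraries, with a log2 fold change of -0.98 ± 0.16 (SE; edgeR, adjusted p = 4.17e-05). Both genes were called in all 13 settings on the counts. The other 9 members called lower were Spc24 (-0.77), Bub1b (-0.70), Cdc20 (-0.65), Cenpf (-0.64), Espl1 (-0.55), Prc1 (-0.54), Kif2c (-0.53), Top2a (-0.50) and Ncapd2 (-0.42). Each of these 9 calls was lost when some library was left out, with edgeR's adjusted p then in brackets. The call of Bub1b was lost on leaving out double-positive 2 (0.0549), that of Cdc20 on leaving out double-positive 2 (0.0520) and that of Espl1 on leaving out PECAM1-only 2 (0.284), double-positive 1 (0.0804) or double-positive 2 (0.0983). The call of Spc24 was lost on leaving out PECAM1-only 2 (0.375), double-positive 1 (0.0552) or double-positive 2 (0.109), that of Prc1 on leaving out PECAM1-only 1 (0.136), double-positive 1 (0.106) or double-positive 2 (0.0932) and that of Cenpf on leaving out PECAM1-only 1 (0.0850), PECAM1-only 2 (0.0628) or double-positive 1 (0.122). The call of Kif2c was lost on leaving out PECAM1-only 2 (0.181), double-positive 1 (0.104) or double-positive 2 (0.138), that of Top2a on leaving out PECAM1-only 1 (0.0915), PECAM1-only 2 (0.0973), double-positive 1 (0.122) or double-positive 2 (0.184) and that of Ncapd2 under no count filter (0.106) and on leaving out PECAM1-only 1 (0.134), PECAM1-only 2 (0.177), double-positive 1 (0.260) or double-positive 2 (0.156). The count of lower members was 3 to 5 without double-positive replicate 1 (4), double-positive replicate 2 (3) or PECAM1-only replicate 2 (5), and 22 under upper-quartile and 24 under library-size scaling, where the median of all genes was -0.17 and -0.22. With library-size scaling 39.8% of all calls were higher, against 57.0% with TMM. By role, the lower members were 2 of 3 in anaphase control, 2 of 7 in the kinetochore, 2 of 7 in chromosome structure, 2 of 5 among spindle motors, 2 of 6 in cytokinesis and 1 of 5 in the checkpoint. With TMM, none of the 9 entry genes and none of the 3 passenger complex genes passed in either direction with edgeR. Under upper-quartile scaling Ccnb1, Nek2 and Incenp were called lower, and under library-size scaling Ccnb1, Ccnb2, Plk1, Nek2 and Incenp. With limma on log2(RPKM + 1) values Incenp was called lower, Cenpf had -0.66 (adjusted p = 0.0600) and was not called, and Ncapd2 had -0.68 (adjusted p = 0.00796).

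Some members lay above the PECAM1-only level in double-positive cells without passing. Kif23 had a log2 fold change of 0.41 ± 0.16 (SE; edgeR, adjusted p = 0.0508) and Mki67 of 0.37 ± 0.15 (SE; edgeR, adjusted p = 0.0668). Fitting these 2 fractions alone gave 0.42 for Kif23 (edgeR, adjusted p = 0.00907) and 0.37 for Mki67 (0.0147). Both were called higher without either PDGFRa-only library and not called without any 1 of the other 4 libraries. Ccna2 had a log2 fold change of 0.28 ± 0.15 (SE; edgeR, adjusted p = 0.159) and Birc5 of 0.22 ± 0.16 (SE; edgeR, adjusted p = 0.288). Each of these 4 genes had both double-positive libraries above both PECAM1-only libraries.

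Members were also lower in PDGFRa-only than in double-positive cells. Of the 45 members, 18 were lower, none was higher and 27 did not pass (edgeR, adjusted p under 0.05), while 11.7% of all tested genes were lower, 5.94% higher and 17.6% changed in either direction. No member was higher at an unadjusted p under 0.05 or with DESeq2. The members' median log2 fold change was -0.42 and that of all tested genes 0.00. Nusap1 (-1.66 ± 0.17), Ect2 (-1.52 ± 0.18) and Cenpf (-1.12 ± 0.21; SE) were the 3 members over 2-fold lower, against 8.71% of all tested genes. Both PDGFRa-only libraries were below both double-positive libraries for 37 members (30.2% of all tested genes) and above them for 2 (27.3%), Birc5 and Spc24, and 6 overlapped. This comparison shares its libraries with the other 2, so the results of the 3 are not independent.

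The 18 lower members spanned most roles: 4 of 6 cytokinesis genes, 3 of 5 spindle motors, 3 of 5 checkpoint genes, 2 of 3 anaphase genes, 2 of 7 in chromosome structure, 2 of 7 in the kinetochore, 2 of 9 entry genes and none of the passenger complex. After Nusap1 (6.02e-07), Ect2 (5.29e-06), Bub1b (0.000339), Cenpf (0.000811) and Top2a (0.00159; edgeR adjusted p) came Kif11, Prc1 and Kif2c, with log2 fold changes of -0.75, -0.74 and -0.74. Ncapd2 (-0.58), Ttk (-0.71), Kif20a (-0.63), Anln (-0.60), Bub1 (-0.57), Cdc20 (-0.52), Espl1 (-0.52), Cdk1 (-0.53), Ndc80 (-0.56) and Ccnb1 (-0.51) were nearer the threshold. Of the 18 calls, 7 were kept in all 13 settings on the counts: these were Nusap1, Ect2, Bub1b, Cenpf, Top2a, Kif11 and Prc1. On log2(RPKM + 1) values, tested with limma, 8 members were lower, and Top2a at -0.28 (adjusted p = 0.232) and Prc1 at -0.67 (adjusted p = 0.0648) were not among them. Cdk1, Ccnb1, Bub1, Ttk, Espl1, Ndc80, Kif20a and Anln were not called on these values either, with adjusted p of 0.0657 (Espl1) to 0.164 (Bub1), and Cdc20 had -0.78 (adjusted p = 0.0277). The other 11 were lost in at least 1 setting, with the adjusted p in brackets. The call of Kif2c was lost on leaving out double-positive 1 (0.0546), that of Ncapd2 on leaving out double-positive 1 (0.0683) or double-positive 2 (0.129), that of Ttk on leaving out PDGFRa-only 1 (0.129) or double-positive 2 (0.0785) and that of Kif20a on leaving out PDGFRa-only 1 (0.0748), double-positive 1 (0.0882) or double-positive 2 (0.0776). The call of Anln was lost on leaving out PDGFRa-only 1 (0.113), double-positive 1 (0.0582) or double-positive 2 (0.129), that of Bub1 under DESeq2 (0.0622) and on leaving out PDGFRa-only 1 (0.241), double-positive 1 (0.0852) or double-positive 2 (0.148), that of Cdc20 under DESeq2 (0.0680) and a fit of the 2 fractions alone (0.0561) and on leaving out PDGFRa-only 2 (0.0768), PECAM1-only 1 (0.0538), PECAM1-only 2 (0.0532), double-positive 1 (0.208) or double-positive 2 (0.132) and that of Espl1 under DESeq2 (0.0754) and on leaving out PDGFRa-only 2 (0.0634), double-positive 1 (0.177) or double-positive 2 (0.143). The call of Cdk1 was lost under DESeq2 (0.0797) and a fit of the 2 fractions alone (0.0545) and on leaving out PDGFRa-only 1 (0.248), double-positive 1 (0.281) or double-positive 2 (0.0634), that of Ndc80 under DESeq2 (0.0900) and a fit of the 2 fractions alone (0.0569) and on leaving out PDGFRa-only 1 (0.207), PECAM1-only 1 (0.0538), PECAM1-only 2 (0.0529), double-positive 1 (0.214) or double-positive 2 (0.106) and that of Ccnb1 under DESeq2 (0.0882) and a fit of the 2 fractions alone (0.0546) and on leaving out PDGFRa-only 1 (0.210), PECAM1-only 1 (0.0514), PECAM1-only 2 (0.0505), double-positive 1 (0.186) or double-positive 2 (0.151). Without PDGFRa-only replicate 2 the log2 fold changes of Cdk1, Bub1 and Ttk were -0.82, -0.93 and -1.17, and without PDGFRa-only replicate 1 that of Cenpf was -0.75. The count of lower members was 11 without PDGFRa-only replicate 1, 8 without either double-positive library, and 12 with DESeq2. With library-size scaling 21.9% of all calls were higher, against 33.7% with TMM.

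**Figure D4:**
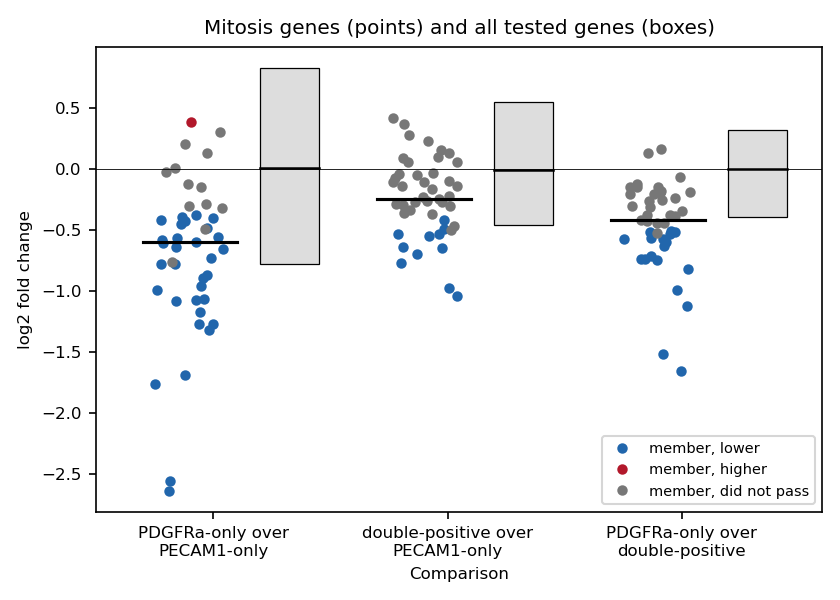
Log2 fold changes of the 45 mitosis genes in each comparison (points; black line, their median), beside the median and the quartiles of all 13909 tested genes (boxes). The members' medians are -0.60, -0.25 and -0.42, while the medians of all genes lie at 0.01, -0.01 and 0.00.

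Other genes of the same machinery were counted from lists drawn up by function, in PDGFRa-only against PECAM1-only cells, where 28.8% of all tested genes were lower and 30.1% higher. Values in brackets after a gene are log2 fold changes. Among 15 regulators of the B-Myb, FoxM1 and DREAM pathway, 8 were lower, 2 higher and 5 did not pass. Nfyb, a subunit of NF-Y, had 26.0 and 32.6 CPM in the PDGFRa-only libraries, against 111 and 104 CPM in the PECAM1-only libraries, and its log2 fold change was -1.87 ± 0.18 (SE; edgeR, adjusted p = 1.84e-08). Mybl2 (B-Myb, which activates late cell-cycle genes) had 118 and 103 CPM in the PDGFRa-only libraries, against 229 and 228 CPM in the PECAM1-only libraries, with a log2 fold change of -1.05 ± 0.16 (SE; edgeR, adjusted p = 9.05e-06). The pocket proteins Rbl2 (-1.55) and Rbl1 (-1.18), which hold these genes off in resting cells, were lower too. Lin54 (0.91), the DNA-binding subunit of DREAM, and Nfya (0.80), another NF-Y subunit, were higher. These 2 genes, and others given below as the higher ones of a list, were named after their values were seen.

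Of 16 genes of cohesin and its regulators, 10 were lower, 1 higher and 5 did not pass. Sgo2a (shugoshin, which shields centromeric cohesin) had 32.6 and 37.6 CPM in the PDGFRa-only libraries, against 115 and 98.6 CPM in the PECAM1-only libraries, with a log2 fold change of -1.60 ± 0.18 (SE; edgeR, adjusted p = 1.60e-07). The cohesin subunit Rad21 (-0.96), the acetyltransferase Esco2 (-1.01) and the regulator Pds5b (-0.87) were also lower. Of the 3 genes of condensin II, Ncapd3 was lower (-0.58 ± 0.17, SE; edgeR, adjusted p = 0.00607), Ncaph2 higher (0.54 ± 0.18, SE; edgeR, adjusted p = 0.0141), and Ncapg2 did not pass (-0.33). The call of Ncapd3 was lost without PDGFRa-only replicate 1 (edgeR, adjusted p = 0.0567). The call of Ncaph2 was lost without PDGFRa-only replicate 2 (0.0616) or PECAM1-only replicate 1 (0.0849) and under scaling by upper quartile (0.115) or library size (0.238). Tested with limma on log2(RPKM + 1) values, Ncaph2 had 0.013 (adjusted p = 0.955). The higher cohesin gene, the acetyltransferase Esco1 (0.66), was not called without PECAM1-only replicate 2 or under either of these scalings. The count of lower condensin II genes was 2 without PDGFRa-only replicate 2 and under both scalings.

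Of 17 genes of the inner centromere network and the Mis18 pathway, which loads Cenpa, 9 were lower, 1 higher and 7 did not pass. Cenpm had 4.71 and 6.65 CPM in the PDGFRa-only libraries, against 49.1 and 45.5 CPM in the PECAM1-only libraries, and its log2 fold change of -3.02 ± 0.24 (SE; edgeR, adjusted p = 7.79e-10) was larger in size than that of any of the 45 members. Cenpt (-1.55), which bridges centromere and outer kinetochore, and the Cenpa chaperone Hjurp (-0.92) followed. Mis18a (0.73) was higher, but not under library-size scaling. Of 16 outer kinetochore and checkpoint partners, 6 were lower, 2 higher and 8 did not pass. Kntc1, a subunit of the complex that recruits dynein to kinetochores, had a log2 fold change of -1.71 ± 0.17 (SE; edgeR, adjusted p = 3.31e-08), and the scaffold Knl1 one of -0.93 ± 0.17 (SE; edgeR, adjusted p = 0.000105). The 2 higher genes were Zwint, which binds Knl1, with 177 and 164 CPM in the PDGFRa-only libraries, against 67.8 and 58.6 CPM in the PECAM1-only libraries and a log2 fold change of 1.43 ± 0.16 (SE; edgeR, adjusted p = 1.68e-07), and Mad2l1bp, which helps to silence the checkpoint, with 6.06 and 8.76 CPM in the PDGFRa-only libraries, against 2.33 and 2.67 CPM in the PECAM1-only libraries and a log2 fold change of 1.59 ± 0.37 (SE; edgeR, adjusted p = 0.00104). The lower count was 3 without PECAM1-only replicate 1, and the higher count was 4 without PDGFRa-only replicate 2 and 1 with the minimum count of 50.

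The 18 genes of the anaphase-promoting complex were split, with 6 lower, 5 higher and 7 that did not pass. The ubiquitin-conjugating enzyme Ube2c (-0.96), the inhibitor Fbxo5 (-0.96) and the subunit Anapc5 (-0.72) were lower. The subunit Cdc16 was higher, with 127 and 190.2 CPM in the PDGFRa-only libraries, against 82.0 and 69.0 CPM in the PECAM1-only libraries and a log2 fold change of 1.07 ± 0.19 (SE; edgeR, adjusted p = 4.99e-05). Without PECAM1-only replicate 1 the counts were 3 lower and 3 higher, and without PECAM1-only replicate 2 the higher count was 3. The higher count was 3 under upper-quartile scaling, 2 under library-size scaling and 3 with DESeq2. Among 18 further kinesins and spindle proteins, 13 were lower, 1 higher and 4 did not pass. Ckap2, a microtubule-associated protein, had 20.9 and 29.2 CPM in the PDGFRa-only libraries, against 204 and 182 CPM in the PECAM1-only libraries and a log2 fold change of -2.93 ± 0.19 (SE; edgeR, adjusted p = 2.99e-11). Aspm (-1.39), which organises spindle poles, and the kinesins Kif15 (-1.19) and Kif18a (-1.34) were lower as well; on log2(RPKM + 1) values Kif18a had -0.87 (adjusted p = 0.00295) with limma. The 1 higher gene, Ckap2l (0.43), a relative of Ckap2, lost its call without PDGFRa-only replicate 2, either PECAM1-only library or double-positive replicate 2, under both scalings, with DESeq2, with the minimum count of 50 and with the 2 fractions alone. Without PDGFRa-only replicate 1, 2 genes were higher.

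Of 19 regulators of mitotic entry and exit, 7 were lower, 5 higher and 7 did not pass. Gtse1 (-0.97), the phosphatase targeting protein Cdca2 (-0.99) and the phosphatase subunit Ppp2r2d (-0.77) were lower, and the phosphatase scaffold Ppp2r1a (0.65) was higher. The lower count was 4 without PDGFRa-only replicate 1, and the counts were 4 lower and 2 higher without PECAM1-only replicate 1. The higher count was 2 under both scalings and 3 with the 2 fractions alone. Of 9 partners of cytokinesis, 6 were higher, 1 lower and 2 did not pass. Pdcd6ip (ALIX), which recruits the membrane-cutting ESCRT-III proteins to the midbody, had 593 and 571 CPM in the PDGFRa-only libraries, against 209.9 and 193 CPM in the PECAM1-only libraries and a log2 fold change of 1.53 ± 0.15 (SE; edgeR, adjusted p = 3.09e-08). The ESCRT-III subunit Chmp4b (1.91), the ATPase Vps4a (1.18) and citron kinase, Cit (0.97), were higher too. For log2(RPKM + 1) values, tested with limma, Cit had 0.36 (adjusted p = 0.0835) and was not called, and Vps4a had 0.66 (adjusted p = 0.00712). Cep55 (-1.33), the midbody protein that recruits ALIX, was lower; 2 genes were lower under library-size scaling. As background, ALIX, Chmp4b and Vps4a also serve in endosome sorting outside mitosis. Of 26 DNA replication genes, 17 were lower, 2 higher and 7 did not pass. The helicase subunits Mcm6 (-1.48) and Mcm2 (-1.48), the polymerase subunit Pola1 (-1.64) and the replication factor Mcm10 (-1.30) had the smallest p, while Cdc6 (1.02) and Ccne2 (1.06), which act in origin licensing and at the start of S phase, were higher. Without PECAM1-only replicate 2 the higher count was 1. The lists' medians were -0.58 (DREAM), -0.49 (cohesin), -0.33 (condensin II), -0.63 (inner centromere), -0.30 (outer kinetochore), -0.03 (anaphase-promoting complex), -0.73 (kinesins and spindle), -0.04 (entry and exit), 0.78 (cytokinesis partners) and -0.67 (replication), against 0.01 over all tested genes.

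**Figure D5:**
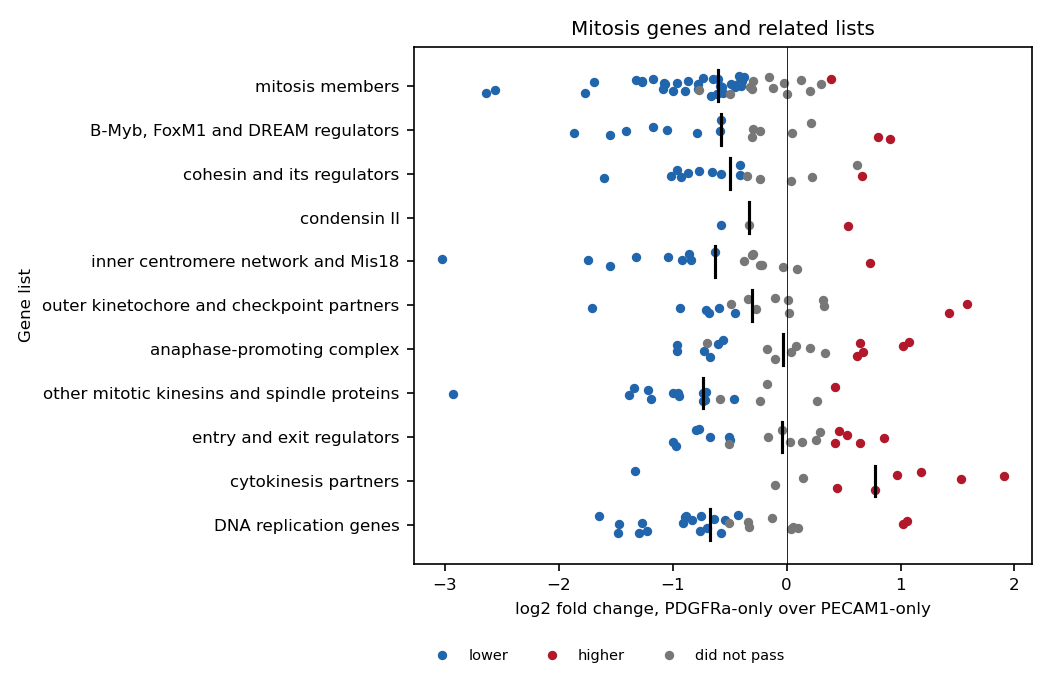
Log2 fold changes, PDGFRa-only over PECAM1-only, of the 45 mitosis genes and of 10 lists of related genes, 1 point per gene; blue marks lower, red higher and grey genes that did not pass, and black lines mark medians. The members' median is -0.60, and the cytokinesis partners, at 0.78, are the list whose median lies above 0.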

How the data were processed

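RNA was sequenced from 6 libraries, 2 of each sorted fraction. The authors deposited a table of raw counts per gene with no normalization; the submitters' processing notes name cutadapt 1.2.1, TopHat2 2.0.8b, Bowtie2 2.1.0, HTSeq 0.5.4p3 and the build GRCm38, without the role of each. They also deposited RPKM values, preprocessed in a way not given in the sources used here. These values hold no zeros and include identical values in replicates. Their spread, and the limma adjusted p that rests on it, may therefore not be that of the libraries. They served as an alternative only.

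Genes were kept by filterByExpr (minimum count 10), which left 13909 of 38561. Counts were scaled by TMM and fitted with edgeR 4.0.16 (glmQLFit, robust, 1 mean per fraction over all 6 libraries, 3 residual degrees of freedom; R 4.3.3). Tests were two-sided, with Benjamini-Hochberg adjustment across the 13909 genes and a threshold of 0.05. Standard errors and 95% intervals came from the F statistic. Log2 fold changes are positive where the first-named fraction is the higher one. Exon lengths, with the exons of all transcripts of a gene merged, and positions came from GENCODE M21 (GRCm38). Members, lists, tests and alternatives were chosen with earlier results of these data known. Values are given for each role's smallest and largest p, for members that were higher, and for up to 4 genes of each related list; 1 gene of these lists is not reported here.

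Alternatives were upper-quartile and library-size scaling, DESeq2 1.42.0, no count filter, a minimum count of 50, fitting 2 fractions alone, the replicate number as a block, leaving out each library, and limma 3.58.1 on log2(RPKM + 1) and log2(RPKM + 0.1). They were applied to the related lists after the data had been seen. Counting intervals are not given; the depth of 4809661 to 7273669 counts limits members of few counts such as Cdc25b. Figures were drawn with matplotlib 3.10.9 in Python 3.11.15.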

Additional observations from a re-analysis of the deposited data

How the results depend on the processing

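The direction of every called member was kept in all settings. The values below are counts of calls (members or all genes, higher or lower) and log2 fold changes of members that had not passed and turned direction; the cause was not tested. A count was taken as moved when it changed over 1.5-fold or to or from 0. The members' median was so taken when it changed by more than the libraries' spread. Smaller changes are not listed. For PDGFRa-only against PECAM1-only, members lower ran from 29 (no count filter) to 38 (library-size scaling) with both fractions complete. Their number fell without any 1 library except PDGFRa-only replicate 2, and the members' median then ran from -0.79 to -0.46. In this comparison the values that turned direction or moved were these. Upper-quartile scaling gave 0 for members higher, -0.81 for the members' median, -0.076 for Ccna2, -0.20 for Mad2l1 and -0.0033 for Kif23. Library-size scaling gave 0 for members higher, -0.89 for the members' median, -0.16 for Ccna2, -0.28 for Mad2l1 and -0.085 for Kif23. DESeq2 gave 0 for members higher and -0.037 for Mad2l1. No count filter gave 0 for members higher and 0.0051 for Cdc25c. The minimum count of 50 gave 0 for members higher and -0.059 for Mad2l1. Fitting 2 fractions alone gave 0 for members higher and -0.028 for Mad2l1. The log2(RPKM + 1) values gave 0 for members higher. The log2(RPKM + 0.1) values gave 0 for members higher. Leaving out 1 library gave 0 to 2 for members higher, -0.20 to 0.20 for Cdc25c, -0.080 to 0.12 for Mad2l1, -0.30 to 0.042 for Nuf2, -0.79 to 0.083 for Kif4 and -0.0021 to 0.40 for Kif23. For double-positive against PECAM1-only the values that turned direction or moved were these. Upper-quartile scaling gave 22 for members lower, -0.41 for the members' median, -0.064 for Cdc25c, -0.11 for Aurkb, -0.015 for Mad2l1, -0.11 for Nuf2, -0.075 for Smc4 and -0.041 for Kif4. Library-size scaling gave 3658 for all genes lower, 24 for members lower, -0.46 for the members' median, -0.11 for Cdc25c, -0.16 for Aurkb, -0.061 for Mad2l1, -0.16 for Nuf2, -0.12 for Smc4 and -0.088 for Kif4. DESeq2 gave -0.32 for the members' median, -0.020 for Aurkb and -0.015 for Nuf2. No count filter gave 1 for members higher, -0.21 for the members' median and 0.0071 for Spc25. The minimum count of 50 gave -0.28 for the members' median. Fitting 2 fractions alone gave 2 for members higher. The log2(RPKM + 1) values gave 1 for members higher, -0.34 for the members' median, -0.11 for Cdc25c, -0.048 for Aurkb, -0.071 for Nuf2 and 0.023 for Tpx2. The log2(RPKM + 0.1) values gave 1 for members higher, -0.35 for the members' median, -0.12 for Cdc25c, -0.049 for Aurkb, -0.077 for Nuf2 and 0.023 for Tpx2. Leaving out 1 library gave 0 to 2 for members higher, 1307 to 2788 for all genes lower, -0.28 to -0.15 for the members' median, -0.16 to 0.35 for Cdc25c, -0.15 to 0.00082 for Ndc80, -0.14 to 0.023 for Smc2, 3 to 15 for members lower, -0.27 to 0.22 for Spc25, -0.26 to 0.059 for Ncapg, -0.14 to 0.066 for Cdk1, -0.25 to 0.16 for Aurka and -0.058 to 0.25 for Smc4. For PDGFRa-only against double-positive the values that turned direction or moved were these. Library-size scaling gave 528 for all genes higher. The log2(RPKM + 1) values gave 208 for all genes higher, 565 for all genes lower, 8 for members lower and 0.00028 for Cdc25b. The log2(RPKM + 0.1) values gave 179 for all genes higher, 761 for all genes lower, 8 for members lower and 0.033 for Cdc25b. Leaving out 1 library gave 8 to 22 for members lower, -0.35 to 0.14 for Cdc25c, 218 to 1235 for all genes higher and -0.71 to 0.39 for Cdc25b.

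Deviations of same-numbered libraries correlated at -0.03 (PDGFRa-only and PECAM1-only), 0.20 (double-positive and PECAM1-only) and 0.16 (PDGFRa-only and double-positive). Whether the libraries are paired is not known. The replicate number was not treated as pairing them, since the labels do not say what it marks. With it as a replicate block, 33 members were lower, Ncapg now among them (-0.55, adjusted p = 0.0177), and 1 higher in PDGFRa-only against PECAM1-only cells, 11 lower and 2 higher (Kif23 at 0.41 with adjusted p = 0.0420 and Mki67 at 0.37 with adjusted p = 0.0490, edgeR) in double-positive against PECAM1-only cells, and 20 lower in PDGFRa-only against double-positive cells. Having 2 libraries per fraction limits all tests.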

Other observations

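The 26 DNA replication genes, which act before mitosis in the cell cycle, were also compared between the other fractions. In double-positive against PECAM1-only cells 14 were lower, 2 higher and 10 did not pass (edgeR), with a median log2 fold change of -0.57. Of all tested genes 16.4% were lower and 21.8% higher. Leaving out 1 library gave 10 to 15 lower genes. Mcm6 (-0.95) and Mcm2 (-0.94), subunits of the replicative helicase, are examples with their log2 fold changes. In PDGFRa-only against double-positive cells 6 were lower, with a median of -0.17; 1 was lower without double-positive replicate 1 and 0 without double-positive replicate 2. Of all tested genes, 11.7% were lower and 5.94% higher in PDGFRa-only against double-positive cells. The mitosis genes had 11 and 18 lower of 45 in the same comparisons. The difference between the lists was not tested.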
